A study of Oryctolagus cuniculus with 16 samples.

Results

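This account compares oligodendrocyte progenitor cells (OPC) with microglia sorted from the same treatment group, premature rabbit kits that had received an adenovirus carrying PPARg (Ad-PPARg). The comparison rests on the 8 Ad-PPARg libraries of the 16 in the series, 4 of OPC and 4 of microglia, assigned from the labels' cell type and treatment. The 8 libraries came from 5 kits. Kits K188-11, K197-3 and K197-4 gave both cell types, K196-4 gave microglia only and K196-12 gave OPC only. The remaining 8 libraries, 4 of each cell type from 5 kits given the control virus (Ad-GFP, green fluorescent protein alone), served as the background for asking which contrasts were wider or narrower after Ad-PPARg.

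All kits were of the New Zealand breed, and the controls shared the injury: every animal had moderate to severe intraventricular haemorrhage, bleeding into the fluid spaces of the brain. The PPARg virus also encoded green fluorescent protein, both viruses used the CMV promoter, which is active in many cell types, and both were injected into the ventricle. Brain cells were sorted at day 7. Microglia were gated by CD11b with low CD45, and OPC by the O4 antigen. Within a group no kit contributed more than 1 library, going by the kit identifiers.

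Microglia are the resident macrophages of the brain, of myeloid origin, and survey, engulf and signal during injury. O4-positive progenitors belong to the neural lineage and mature into the oligodendrocytes that wrap axons in myelin, a process disturbed by haemorrhage in preterm infants. PPARg, a nuclear receptor activated by lipid ligands, binds DNA with the retinoid X receptor and is known for control of lipid handling and for damping inflammatory genes in macrophages.

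Genes carry Ensembl rabbit identifiers and positions in the deposited files. No names are paired with them in the files, and 0 of the 23669 identifiers matched the reference table. The lineage markers, PPARg and its targets could therefore not be read, and the labelled cell types could not be checked against their defining genes. Genes are given below by identifier or by position and structure, with coordinates as the files state them. The genome build is not given in the sources used here.

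The Ad-PPARg libraries held 6.24 to 14.9 M (mega) counts on genes in microglia and 11.8 to 14.3 M in OPC. Expression levels of tested genes correlated at 0.958 to 0.987 between microglia libraries, at 0.912 to 0.991 between OPC libraries and at 0.659 to 0.725 between the cell types (Spearman's rho across genes, described without a test). OPC replicate 4 (K196-12) stood apart from the other OPC libraries, at 0.912 to 0.935 against 0.964 to 0.991 among the other 3. Microglia replicate 1 (K188-11) was the shallowest library, and 3.77% of its counts lay on single-exon genes under 300 bp, against 0.316 to 0.340% in the other 3 microglia libraries. Counts of cell-type contrasts are therefore also given without these 2 libraries.

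OPC and microglia of Ad-PPARg kits differed in most of the genes that could be tested. Of 13585 genes tested, 7559 (55.6%) differed between the cell types at an edgeR adjusted p under 0.05: 3807 (28.0%) were higher in OPC, while 3752 (27.6%) were higher in microglia. At least 4-fold differences numbered 1839 (13.5%) toward OPC and 1699 (12.5%) toward microglia. At least 16-fold differences numbered 657 (4.84%) and 830 (6.11%). Without microglia replicate 1 these were 836 and 847, and without both libraries that stand apart 835 and 811. At 64-fold the sides were uneven, with 57 genes (0.420%) toward OPC and 305 (2.25%) toward microglia, and 117 (0.852%) and 233 (1.70%) of 13736 in Ad-GFP libraries. The 64-fold OPC count was 121 without microglia replicate 3, 36 without microglia replicate 2 and 76 without both libraries that stand apart. The 64-fold microglial count was 431 without OPC replicate 2, 234 without OPC replicate 1 and 319 without both libraries that stand apart.

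In 7081 of the 13585 genes (52.1%) the 4 OPC and the 4 microglia libraries did not overlap, 3560 with OPC on top and 3521 with microglia on top. Of the 7559 genes that differed by the test, 6725 (89.0%) had no overlap, and 7423 (98.2%) had the same direction in all 3 kits that gave both cell types. The genes were called on these same libraries, so both counts describe them and test nothing. By contrast, 3848 genes (28.3%) were held within 2-fold by their fitted difference plus or minus 2 standard errors. Levels below are CPM: counts per library total, after edgeR's TMM correction for composition over all 16 libraries. By mean level, 39 genes reached 10 CPM in OPC and stayed under 0.5 CPM in microglia, and 114 did the reverse. Bulk counts cannot tell fewer cells of a type from less RNA per cell.

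The number of genes called was 8648 without OPC replicate 4, 7492 without microglia replicate 1 and 8917 without both. Upper-quartile scaling shifted the all-gene median of the log2 difference from 0.04 to 0.24 and the calls to 4579 toward OPC and 3218 toward microglia, so small class medians below are relative to the scaling.

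The 2 genes with the lowest p on the OPC side were ENSOCUG00000006962 (chromosome 4, 91263358 to 91325818, plus strand, 23 exons) and ENSOCUG00000022093 (scaffold GL018934, 58771 to 95287, minus strand, 18 exons). ENSOCUG00000006962 stood at 235, 207, 266 and 279 CPM in OPC replicates 1 to 4 and at 11.8, 7.78, 10.9 and 8.61 CPM in microglia replicates 1 to 4. The lowest OPC library was far above the highest microglia library, and the spread within each cell type was narrow. The log2 difference was 4.66 (SE 0.22, edgeR adjusted p = 1.67e-06), and 4.79 in Ad-GFP libraries. ENSOCUG00000022093 stood at 149.7, 105, 118 and 142 CPM in OPC and at 3.73, 3.43, 5.35 and 3.05 CPM in microglia, again without overlap. Its log2 difference of 5.04 (SE 0.25, edgeR adjusted p = 1.78e-06) compares with 6.25 in Ad-GFP libraries, where microglia held 1.06 to 3.04 CPM.

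On the microglia side the lowest p belonged to ENSOCUG00000010887 (chromosome 13, 138792934 to 138821091, minus strand, 21 exons) and ENSOCUG00000010785 (chromosome 14, 106257159 to 106293293, plus strand, 7 exons). ENSOCUG00000010887 was measured at 274, 334, 302 and 361 CPM in microglia and at 8.29, 9.27, 7.53 and 9.68 CPM in OPC. The groups did not overlap, with a log2 difference (OPC minus microglia) of -5.19 (SE 0.18, edgeR adjusted p = 1.61e-06) against -4.97 in Ad-GFP libraries. ENSOCUG00000010785 was less abundant, at 61.6, 67.0, 72.7 and 70.8 CPM in microglia and 2.98, 2.83, 2.70 and 2.80 CPM in OPC. The 4 OPC libraries lay almost on one level, and the log2 difference was -4.58 (SE 0.16, edgeR adjusted p = 1.61e-06), with -5.01 in Ad-GFP libraries.

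**Figure D1:**
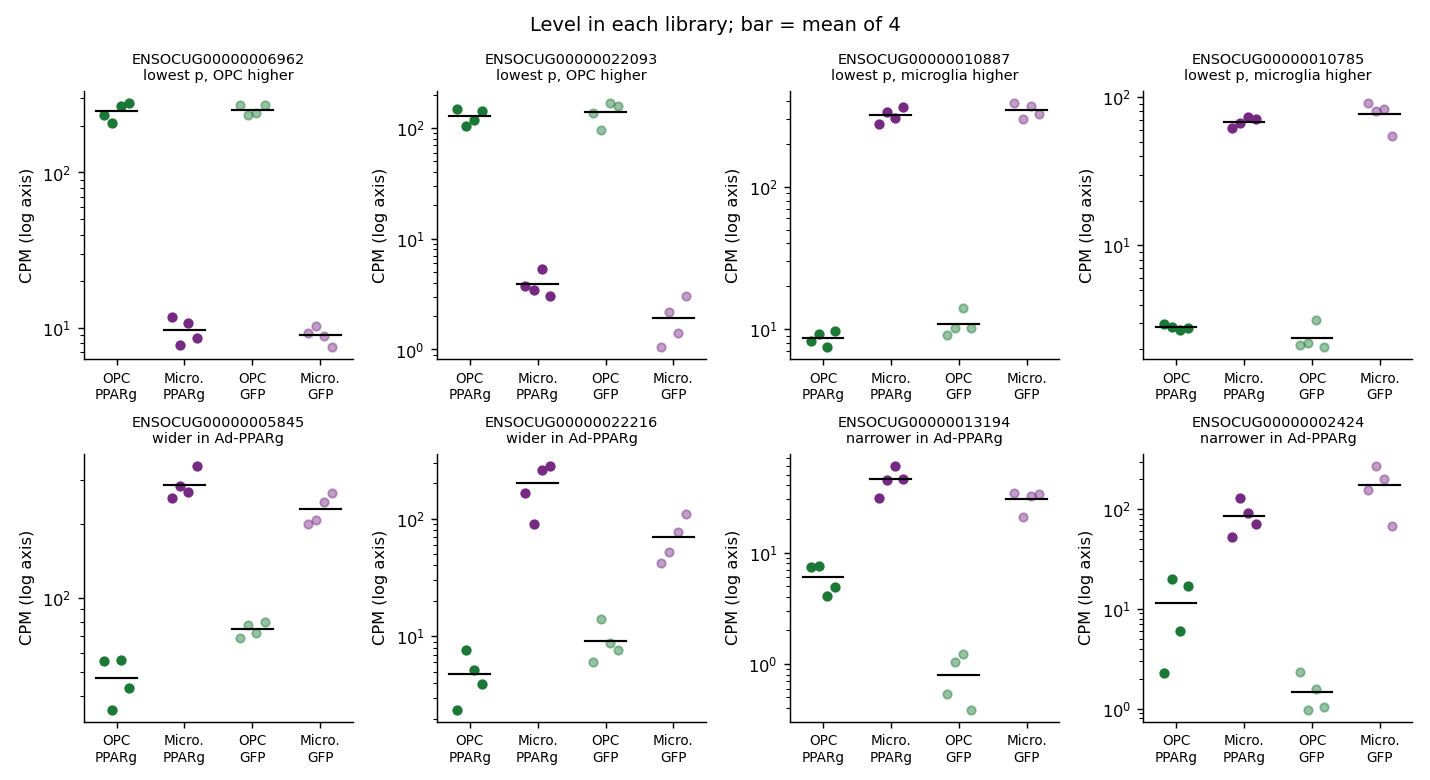
Level of 8 named genes in each of the 16 libraries, in CPM on a log axis, with green points for OPC, purple points for microglia, paler points for Ad-GFP and bars for the mean of 4. In the top row OPC and microglia do not overlap in either treatment; in the bottom row, genes chosen for the lowest p of the difference between treatments, ENSOCUG00000013194 and ENSOCUG00000002424 sit higher in Ad-PPARg than in Ad-GFP OPC on average, 5.99 against 0.799 CPM and 11.4 against 1.48 CPM.

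Among genes at least 16-fold apart, the one with the highest mean level in OPC was an X-linked gene of 9 exons (X, 86329163 to 86439439, minus strand). It held 3483, 1133, 1988 and 22932 CPM in OPC replicates 1 to 4 and 21.7, 24.9, 169 and 65.5 CPM in microglia. Every OPC library was above every microglia library, but OPC replicate 4 alone carried most of the group mean of 7384 CPM. The log2 difference of 6.70 had an SE of 1.26 (edgeR adjusted p = 0.0015), and Ad-GFP libraries gave 6.92 with OPC at 2395 to 5523 CPM.

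The microglial counterpart was a gene of 4 exons and 761 bp of exon on scaffold GL018717 (2789010 to 2791550, plus strand). It held 13576, 22527, 15720 and 19709 CPM in microglia, a mean of 17883 CPM, against 522, 695, 531 and 724 CPM in OPC. No library of one cell type came near the other, and the log2 difference was -4.85 (SE 0.27, edgeR adjusted p = 2.26e-06). Per kilobase of exon its mean level was 23499 CPM in microglia, and that of the X-linked gene was 3396 CPM in OPC.

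Where the genes lie and how they are built divided the contrast unevenly. Genes that span at least 400 kb of genome leaned to OPC: of 204 tested, 103 favoured OPC and 36 microglia (68.1% called, against 55.6% of all genes), with a median log2 difference of 1.09 against 0.04 over all genes. Single-exon genes under 300 bp also leaned to OPC: of 246 tested, 60 were higher there and 25 in microglia. Fewer of them were called (34.6%, against 55.6% of all genes), and their median was 0.47. These medians were 1.26 and 0.66 under upper-quartile scaling, where the median of all genes was 0.24. Short single-exon genes were raised in microglia replicate 1, as given above. Without that library 68 of them were higher in OPC and 28 in microglia, and without OPC replicate 1 (K188-11) 42 and 34.

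Of 707 single-exon genes of 300 bp or more, 53.2% were called, against 55.6% of all genes. They leaned the other way under TMM, with 162 higher in OPC and 214 higher in microglia. Their median of -0.20 became -0.0025 under upper-quartile scaling, with 190 and 187 genes, still below the median of all genes. By chromosome, the share of called genes that were higher in OPC ran from 43.7% on chromosome 13 (243 against 313) to 59.2% on the X (132 against 91), beside 50.4% over all genes. Upper-quartile scaling raised the OPC share of all calls to 58.7%, and gave 293 against 267 on chromosome 13 and 151 against 76 on the X. At least 16-fold differences on the X numbered 42 toward OPC and 22 toward microglia of 396 tested. Over all 13585 genes they numbered 657 and 830.

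**Figure D2:**
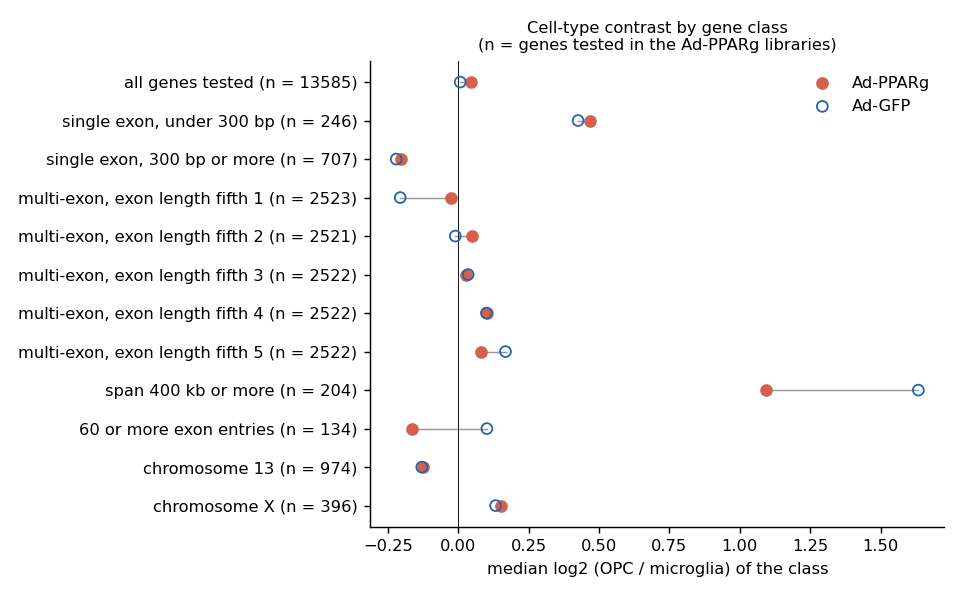
Median log2 difference between OPC and microglia (x axis) of gene classes defined from the annotation, in Ad-PPARg (filled) and Ad-GFP libraries (open), under TMM scaling. Genes spanning 400 kb or more lie farthest toward OPC in both treatments, at 1.09 in Ad-PPARg and 1.63 in Ad-GFP.

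Some genes at least 4-fold apart lay beside others of the same direction. Stretches of exactly 2 tested neighbours numbered 187 on the OPC side and 146 on the microglial side. Those of 3 numbered 31 and 48, and those of 4 numbered 12 and 13. Of all genes tested, 13.5% were called at least 4-fold higher in OPC and 12.5% in microglia. No comparison with chance was made. On the OPC side the longest uninterrupted stretches of tested genes held 6 genes, and 3 such stretches were found. One on chromosome 3 (22917510 to 23265441) was followed by a stretch of 5 (23357790 to 23539684). All 11 genes lie on the plus strand, and 9 of them have 2349 to 2442 bp of exon. Whether genes of like size here are copies that divide reads was not tested. The log2 differences of the 11 ran from 2.59 to 4.70. The last of the 11 was the most abundant, at 722, 800, 916 and 451 CPM in OPC and 17.5, 23.2, 45.3 and 24.9 CPM in microglia, while the other 10 averaged 2.73 to 57.8 CPM in OPC. The lowest OPC library was well above the highest microglia library.

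The longest microglial stretch held 9 neighbouring genes on chromosome 9 (14238905 to 14700508), with log2 differences from -7.52 to -2.75. In the middle lie 4 single-exon genes of a like size, 1056 to 1110 bp, and whether reads were divided between copies was not tested. The most abundant of them (14560704 to 14561762, plus strand) held 276, 307, 332 and 496 CPM in microglia and 0.358, 5.31, 1.94 and 5.12 CPM in OPC. The first gene of the stretch averaged 57.5 CPM in microglia and 0.315 CPM in OPC. Further stretches of 7 genes lay on chromosome 13 (38834852 to 40169776, log2 differences -6.34 to -2.30) and chromosome 18 (37149275 to 37357114, -6.54 to -2.52). All genes of these microglial stretches that could be tested in Ad-GFP libraries pointed the same way there.

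Measured per library, 8 summary shares were compared between the cell types. The 10 most abundant genes took 9.68 to 12.5% of counts in microglia and 4.75 to 7.59% in OPC, so microglial RNA was more concentrated on few genes. X-linked genes took 2.26 to 4.31% in OPC and 1.80 to 1.89% in microglia. Genes spanning 400 kb or more took 0.993 to 1.28% in OPC and 0.488 to 0.601% in microglia. In each of these 3 measures the groups did not overlap, and each reached the smallest p that 4 against 4 allows (two-sided exact permutation p = 0.0286). Adjusted over the 8 measures by Benjamini-Hochberg this is 0.0762, which does not pass 0.05. The permutation shuffled libraries as independent, although 3 kits gave both cell types, so the pairing was not used.

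Much of the X-linked difference lay in the single abundant gene. With it the OPC share was 1.00 percentage points higher, or 0.516 with OPC replicate 4 left out. Without the gene the share was 0.229 higher. X-linked genes other than this one held 2.07% ± 0.0681 of counts in OPC and 1.84% ± 0.0336 in microglia (SD, 4 libraries each, exact permutation p = 0.0286, two-sided), a comparison chosen after the values were seen. The other 5 measures gave exact permutation p of 0.143 to 0.857. None of the 8 contrasts differed between Ad-PPARg and Ad-GFP after adjustment. The nearest was the share of the 10 most abundant genes, where the OPC value lay 5.36 percentage points under microglia in Ad-PPARg and 8.07 in Ad-GFP libraries (treatment labels permuted within cell type, exact p = 0.0514, adjusted p = 0.411).

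Mitochondrial genes of the later part of the mitochondrial sequence split the kits, not the cell types. The 13 tested mitochondrial genes that start after position 7000 of the mitochondrial sequence included 0 that differed between OPC and microglia by edgeR. They held 0.00511 to 0.0107% of counts in the libraries of kits K188-11, K196-4 and K196-12 and 0.871 to 1.42% in those of K197-3 and K197-4, in either cell type. The gene at 5354 to 6895, by contrast, held 7008 to 14888 CPM in all 8 libraries. A pair of small neighbouring genes on scaffold AAGW02081404 (24130 to 24426 and 27532 to 27689, minus strand) had the reverse pattern, chosen after their values were seen. The first held 322 to 531 CPM in the libraries of K188-11, K196-4 and K196-12 and 1.94 to 2.63 CPM in those of K197-3 and K197-4.

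This split was balanced over the cell types in Ad-PPARg, with 2 OPC and 2 microglia libraries on each side. In Ad-GFP it was not: only microglia replicate 1 (K193-5) had the low mitochondrial share, at 0.00782%, and it held 545 CPM of the first scaffold gene. That gene was called in Ad-GFP with a log2 difference of -6.12 (SE 1.98, edgeR adjusted p = 0.0202), and it gave 0.40 (SE 1.83) in Ad-PPARg. The labels do not say what the first part of a kit's identifier stands for. With it as a block, 7873 genes differed between the cell types in Ad-PPARg.

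**Figure D3:**
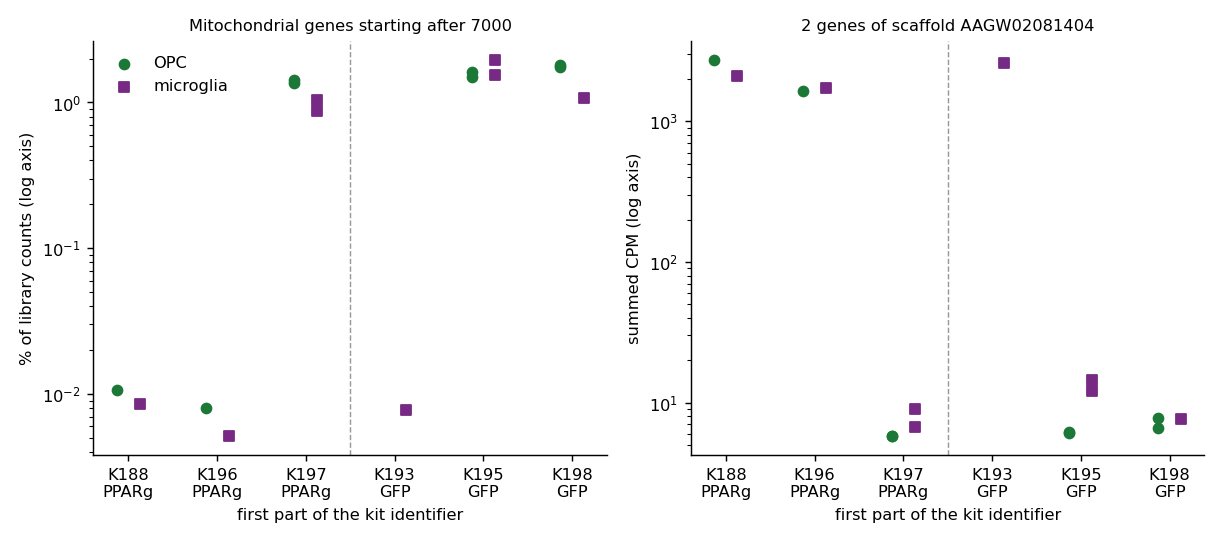
Share of counts on mitochondrial genes starting after position 7000 (left, percent) and summed level of 2 genes of scaffold AAGW02081404 (right, CPM), on log axes, by the first part of the kit identifier. Points are libraries, green circles OPC and purple squares microglia. K188 and K196 are low on the left and high on the right in both cell types. K193, which has microglia only, is too.

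Genes that separated the cell types in control kits did so again in Ad-PPARg kits. The control libraries supplied 808 genes at least 16-fold higher in OPC (5.88% of those tested there) and 782 at least 16-fold higher in microglia (5.69%), a choice made in other animals. Of the 793 OPC genes that could be tested after Ad-PPARg, 793 kept their direction and 791 were called (99.7%), with 610 still at 16-fold or more. Of 770 microglial genes, 768 kept their direction, 768 were called (also 99.7%) and 714 were at 16-fold or more. The 2 exceptions were the scaffold pair just described. Over all 13585 genes tested in Ad-PPARg, 28.0% were called higher in OPC and 27.6% higher in microglia.

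As a share of counts, the 808 control-chosen OPC genes held 12.6, 12.5, 13.7 and 17.0% in OPC replicates 1 to 4 after Ad-PPARg. In microglia they held 0.370, 0.247, 0.531 and 0.252%. OPC replicate 4 was the high OPC library, and microglia replicate 3 (K197-3) the high microglia library. The 782 microglial genes held 21.5 to 25.9% in microglia, and in OPC 0.903, 1.18, 0.679 and 0.849%. The scaffold pair is among the 782. Its genes held 411 and 2312 CPM in OPC replicate 1 and 531 and 1126 CPM in OPC replicate 4. In OPC replicates 2 and 3 they held 1.94 to 3.80 CPM. The 830 microglial genes at 16-fold in Ad-PPARg, which do not include the pair, held 0.580, 1.22, 0.711 and 0.697% in OPC. No library of one cell type came near the share in the other.

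**Figure D4:**
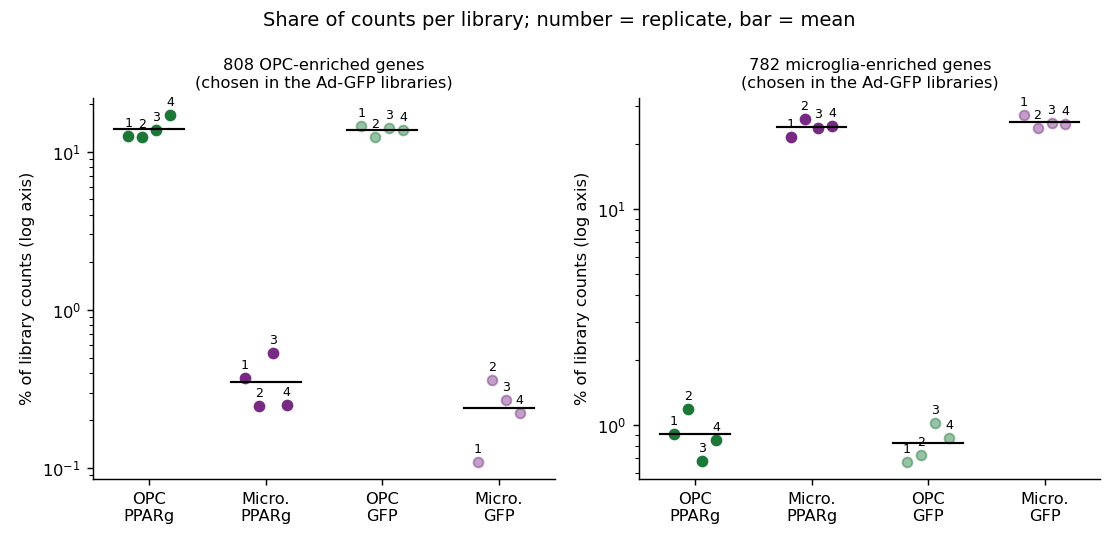
Share of library counts (percent, log axis) on the OPC-enriched and microglia-enriched genes chosen in the Ad-GFP libraries, by group; numbers are replicates and bars means. In Ad-PPARg microglia the OPC-enriched genes hold 0.247 to 0.531%, and in Ad-GFP microglia, where the genes were chosen, 0.109 to 0.362%. The microglia-enriched genes include the scaffold pair, which is high in OPC Ad-PPARg replicates 1 and 4.

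The size of the contrast shifted differently on the 2 sides. OPC-enriched genes chosen in Ad-GFP had a median log2 difference of 4.57 after Ad-PPARg against 4.92 where they were chosen, and microglia-enriched genes 5.63 against 5.43. Choosing genes in one treatment favours large values there, so the reverse choice was made as well. The 657 OPC genes chosen in Ad-PPARg measured 4.76 there and 5.09 in Ad-GFP, where 654 of 654 tested were called. Over all 13736 genes tested in Ad-GFP, 4704 were called higher in OPC. The 830 microglial genes measured 5.53 in Ad-PPARg and 5.30 in Ad-GFP. Under both choices the OPC side was smaller and the microglial side larger after Ad-PPARg.

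Gene by gene, the cell-type contrasts of the 2 treatments ran closely together. Of 13427 genes tested in both, 7064 were called in both, all in the same direction, which is 93.5% of the Ad-PPARg calls and 75.2% of the Ad-GFP calls. Another 453 were called in Ad-PPARg alone and 2208 in Ad-GFP alone, where 9392 of 13736 genes (68.4%) were called in all. The median SE of a log2 difference over all genes was 0.30 in Ad-PPARg and 0.20 in Ad-GFP. Of the 2208 genes, 2090 had the same sign in Ad-PPARg. Their median log2 difference was 0.44 in size in Ad-PPARg and 0.69 in Ad-GFP, and their median SE was 0.28 and 0.16. Across genes, the log2 differences correlated at 0.975 (Pearson) and 0.957 (Spearman), as a description, since genes are not independent replicates.

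**Figure D5:**
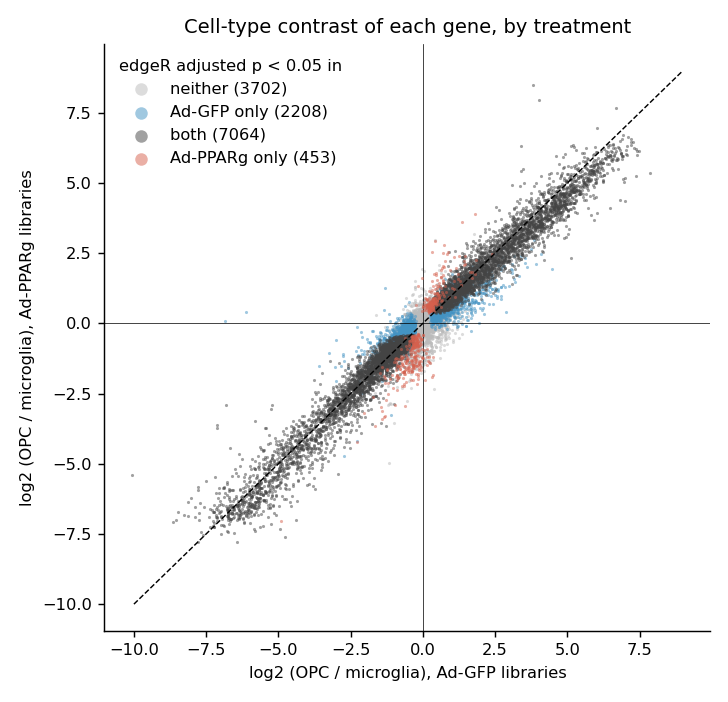
Log2 difference between OPC and microglia of each gene tested in both treatments, Ad-GFP on the x axis and Ad-PPARg on the y axis, coloured by where edgeR called it; the dashed line marks equal contrasts. The 7064 genes called in both have the same sign in both treatments.

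Whether a contrast was wider or narrower after Ad-PPARg was tested as the difference of the 2 contrasts in a fit of all 16 libraries. The kit identifiers have 6 first parts, 3 in Ad-PPARg and 3 in Ad-GFP, and none occurs in both. Differences between the treatments, here and below, therefore cannot be told apart from differences between these sets of kits. No gene passed: 0 of 14699 had an edgeR adjusted p under 0.05, and the lowest was 0.997. At an unadjusted p under 0.05 there were 402 genes, where 5% of those tested is 735. This count moved with single libraries: in Ad-PPARg it was 910 without OPC replicate 4, 792 without OPC replicate 2, 613 without microglia replicate 2 and 239 without microglia replicate 3. It was 881 without Ad-GFP microglia replicate 4 and 1096 without both libraries that stand apart. DESeq2 called 2 genes and limma with voom quality weights 4, with 632 and 1732 at an unadjusted p under 0.05. The median SE of a difference was 0.39 on the log2 scale.

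The 2 genes that DESeq2 called were also the 2 narrowed genes lowest in p by edgeR. ENSOCUG00000013194 (chromosome 9, 11495298 to 11632637, minus strand) held 7.45, 7.56, 4.08 and 4.88 CPM in Ad-PPARg OPC against 0.390 to 1.23 CPM in Ad-GFP OPC, and 30.9 to 60.1 against 21.0 to 34.4 CPM in microglia. Its contrast was -2.91 in Ad-PPARg and -5.21 in Ad-GFP kits (difference 2.29, SE 0.44, edgeR adjusted p = 0.997, DESeq2 adjusted p = 0.00427). ENSOCUG00000002424 (scaffold GL018733, 2135172 to 2139996, minus strand, 4 exons) held 2.27, 20.1, 5.94 and 17.1 CPM in Ad-PPARg OPC against 0.979 to 2.31 CPM in Ad-GFP OPC. OPC replicate 1 lay within the control range and the other 3 above it. In microglia it held 52.2 to 129.5 CPM after Ad-PPARg and 67.5 to 272 CPM after Ad-GFP. The contrast was -2.92 against -6.82 (difference 3.90, SE 0.82, edgeR adjusted p = 0.997, DESeq2 adjusted p = 0.00427).

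The wider contrasts lowest in p were both toward microglia. ENSOCUG00000005845 (chromosome 16, 2456397 to 2508864, plus strand, 12 exons) held 255, 286, 269 and 344 CPM in Ad-PPARg microglia and 55.7, 35.2, 56.0 and 43.3 CPM in Ad-PPARg OPC. In Ad-GFP the levels were 199 to 266 and 68.9 to 79.9 CPM, so the OPC libraries of the treatments did not overlap and the microglia libraries did. The contrast was -2.60 against -1.63 (difference -0.98, SE 0.23, edgeR adjusted p = 0.997). ENSOCUG00000022216 (chromosome 9, 61898577 to 62072540, plus strand, 9 exons) held 165, 90.9, 261 and 281 CPM in Ad-PPARg microglia and 2.38, 7.62, 5.18 and 3.92 CPM in OPC. Ad-GFP libraries held 41.8 to 109.9 and 6.08 to 13.9 CPM, and the contrast was -5.37 against -2.94 (difference -2.45, SE 0.58, edgeR adjusted p = 0.997).

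As groups, the strong contrasts of the 2 cell types leaned in opposite ways, with no test of the lean. Genes were grouped by their mean contrast over both treatments at 16-fold or more. Of 742 OPC-enriched genes, 161 were wider and 581 narrower in Ad-PPARg (78.3% narrower), with a median change in size of -0.41 on the log2 scale. Of 828 microglia-enriched genes, 509 were wider and 319 narrower, with a median of 0.17. Over all 14699 genes the median difference of contrasts was -0.02.

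The larger shift on the OPC side was in the microglia libraries, where the levels of the 742 genes differed by a median of 0.34 log2 units between Ad-PPARg and Ad-GFP, while in OPC the median was -0.12. Median log2 levels of these genes in the 4 Ad-PPARg microglia libraries were 1.47, 0.74, 1.63 and 0.82, and in the 4 Ad-GFP microglia libraries -0.03, 1.43, 0.99 and 1.02. Microglia Ad-PPARg replicates 1 and 3 were high and Ad-GFP replicate 1 low, and the groups overlapped. All these levels were low. The 742 genes together held 0.226 to 0.495% of counts in Ad-PPARg microglia and 0.101 to 0.337% in Ad-GFP microglia. The median change was -0.10 without replicate 3 of Ad-PPARg microglia (314 wider, 428 narrower). It was -0.15 without replicate 1 of Ad-GFP microglia (278 wider, 464 narrower) and -0.71 without replicate 2 of Ad-GFP microglia (95 wider, 647 narrower). On the microglial side the direction itself turned, to narrower, without OPC Ad-PPARg replicate 1 (428 narrower, 400 wider) or without OPC Ad-GFP replicate 3 (456 narrower, 372 wider), and it was 651 wider and 177 narrower without OPC Ad-PPARg replicate 2.

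Among genes spanning 400 kb or more the difference of contrasts was below 0 in 175 of 214, with a median of -0.38. The class is on the OPC side of the contrast in both treatments. Without microglia Ad-PPARg replicate 1 the median was -0.10, with 120 of 214 genes below 0, and without both libraries that stand apart -0.12. It was -0.24 without replicate 1 and -0.70 without replicate 2 of Ad-GFP microglia, and -0.63 without replicate 2 of Ad-PPARg microglia. Microglia Ad-PPARg replicate 1 held a median log2 level of 3.40 for these genes, against 1.84 to 2.80 in the other 3, and its low depth and high share of short single-exon genes were given above.

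Within single kits the width of the contrast overlapped between the treatments. The median size of the OPC-to-microglia log2 difference was 0.976 in K188-11, 0.894 in K197-3 and 0.924 in K197-4, and 0.947, 0.886 and 0.932 in the Ad-GFP kits K195-9, K195-11 and K198-7. The means were 0.931 ± 0.0417 and 0.921 ± 0.0321 (SD, 3 kits each, exact permutation p = 0.8, two-sided, where 3 against 3 cannot go below 0.1). For the 742 OPC-enriched genes the kit medians were 4.00, 3.66 and 4.74 after Ad-PPARg and 4.14, 4.42 and 4.67 after Ad-GFP. K197-3, whose microglia library was highest in these genes, had the smallest value. For the 828 microglia-enriched genes the kit medians were 5.02, 4.47 and 5.25 after Ad-PPARg and 4.85, 4.98 and 4.85 after Ad-GFP. The treatments overlapped on both sides.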

How the data were processed

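Per the labels' protocols, RNA of the sorted cells was extracted with Trizol and sequenced paired-end on a HiSeq instrument. Tools listed without roles in the submitters' processing notes are Subread 1.5.2, STAR 2.5.2b and bcl2fastq 2.17. The authors deposited whole-number read counts per gene, not normalized, with exon positions, strand and length, per the file headers. Genome build, annotation and strand setting were not given in the sources used here. Reads of genes that overlap, lie antisense or have near-identical copies may thus be divided or lost. The reference table (assembly mOryCun1.1, 38822 genes) matched 0 identifiers. The planned gene and marker lists could therefore not be used, and no sequences were read.

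Groups came from the labels, 4 libraries each. OPC and microglia were compared with the quasi-likelihood test of edgeR 4.0.16 in R 4.3.3 (robust, TMM, default low-count filter, Benjamini-Hochberg 0.05) in the 8 libraries of a treatment, and the difference of contrasts in all 16. The SE is the log2 difference divided by the square root of F. Shares use raw totals. Kit contrasts and median levels use log2(CPM + 0.5). Library measures were compared by exact permutation of libraries (SciPy 1.17.1), and for the difference of contrasts within each cell type. Neither permutation kept the libraries of a kit together. DESeq2 1.42.0 and limma 3.58.1 were alternatives. The fits were also run on simulated counts, drawn independently for each library and with few genes changed. That setting holds no kit effects, so it cannot show how the fits behave under them. The main fits have no term for the kit, so their p-values measure the spread between libraries. Counting error weighs more in genes of few counts. ENSOCUG00000013194, for example, had 10, 16, 14 and 3 counts in the Ad-GFP OPC libraries.

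Without symbols, the rule names the 2 genes of lowest p in each direction of the contrast and of the difference, the most abundant gene of each cell type at 16-fold or more, and the longest stretches of neighbours at 4-fold or more. Gene classes and their limits, the members and all lists were chosen with earlier results of these data known. Pairing comes from the kit identifiers: in the 3 Ad-PPARg kits with both cell types, deviations from the group means correlated at 0.144, 0.243 and 0.0681 across 13585 genes. Between different kits that share the first part of the identifier they correlated at -0.0746, 0.240 and 0.194. Between kits that do not share it, the range was -0.240 to 0.119. No pair of libraries agreed within sampling noise (6.75 chi-square units per gene or more).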

Additional observations from a re-analysis of the deposited data

Results flagged for a closer look

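In groups of 4 libraries, 56 sets of values were searched for a library far from the other 3, and chance alone would give about 1 in 20. In OPC Ad-PPARg replicate 4, X-linked genes held 4.31% of counts, and the abundant X-linked gene held 22932 CPM, or 2.31% of counts against 0.153 to 0.409% in the other 3 and 0.293 to 0.651% in Ad-GFP OPC. Without that gene the X-linked share was 2.00 to 2.15% in all 4 OPC libraries.

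Mitochondrial genes before position 7000 held 2.27% of counts in OPC Ad-PPARg replicate 1 and 2.43% in microglia Ad-PPARg replicate 1, both from kit K188-11. The next highest Ad-PPARg values were 1.21% in OPC and 1.12% in microglia. In that microglia library the genes at 70 to 1026 and 1093 to 2671 of the mitochondrial sequence held 4615 and 7607 CPM, against 205 to 418 and 461 to 850.5 CPM in the other 3. The same microglia library had 3.77% of counts on single-exon genes under 300 bp. In OPC Ad-GFP replicate 2, single-exon genes of 300 bp or more held 2.63% of counts.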

How the results depend on the processing

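The Ad-PPARg contrast kept its size within 1.5 times under other scalings, filters and tools (6888 to 10026 genes) and when single libraries were left out (6547 to 8648). A test against a 2-fold threshold gave 4129 genes, and 4966 in Ad-GFP, because it asks for more. In the 3 kits with both cell types, the fit with the kit as a block called 7532 genes, and 8051 without the block on the same libraries. As a random block in limma it called 7906. The Ad-GFP contrast had 8921 and 9840 under the 2 blocked fits and 8635 to 9738 with single libraries left out, and the difference of contrasts had 0 under both. The 4 genes lowest in p in the Ad-PPARg contrast passed under both blocked fits; the most abundant gene of each cell type was not run with a block. The leave-outs of both outlying Ad-PPARg libraries, the unblocked fits on the paired kits and the class medians without each library were chosen after seeing the data.

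For the difference of contrasts, DESeq2 called 2 genes, limma with quality weights 4 and leaving out single libraries 0 to 1 (1 without microglia Ad-PPARg replicate 2); the cause was not tested. With control-chosen genes taken at 4-fold, 95.1% of OPC-enriched and 98.2% of microglia-enriched genes were called after Ad-PPARg. Over all genes tested there, 28.0% were called toward OPC and 27.6% toward microglia. The looser choice admits smaller contrasts. Of the 8 library measures, 4 changed sign between the cell types with single libraries left out. They ran from -0.150 to 0.483 percentage points for mitochondrial genes before position 7000, from -0.0194 to 0.453 after it, from -1.05 to 0.100 for short single-exon genes, and from -131 to 963 for the number of genes at 1 CPM or more. Totals of 6.24 to 14.9 M limit genes of few counts most, in microglia replicate 1.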
